A study of Sus scrofa with 23 samples.

Results

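HIP1R (ENSSSCG00000009786), MYO1E (ENSSSCG00000004587), APPL2 (ENSSSCG00000000841), RTN3 (ENSSSCG00000013052) and DMXL1 (ENSSSCG00000027857) encode proteins that act on membrane traffic and on the cell cortex, the actin layer under the plasma membrane. They were followed in pig backfat across 4 diets. The 5 genes were chosen by their measured differences: the study's lists of differentially expressed genes (DEGs) name each of them as changed between pigs fed without and with cDDGS, the dried maize residue left after ethanol production. HIP1R, MYO1E, APPL2 and RTN3 stand on the list for group I against group II, MYO1E, RTN3 and DMXL1 on that for group I against group IV, and HIP1R, MYO1E and RTN3 on that for group I against all other pigs. They are 5 of the 25322 genes in the count files, and all 5 were among the 11039 genes with enough reads to be tested over the 4 groups. Differences from the pigs fed without cDDGS are therefore a description here and carry no test. Comparisons among the cDDGS groups and between the sexes were tested, though the cDDGS pigs also entered the lists above.

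The plasma membrane takes up cargo in clathrin-coated vesicles, whose release needs short-lived actin assembly. HIP1R ties clathrin coats to actin, and MYO1E is a single-headed myosin that links the cortical actin to the membrane. Incoming vesicles that carry the adaptor APPL2 form an early endosome compartment, and in fat cells the APPL proteins are known for their place in adiponectin and insulin signalling. RTN3 belongs to the reticulons, which bend the membrane of the endoplasmic reticulum into tubules. DMXL1 is a large WD-repeat protein of the rabconnectin family, whose members take part in assembling the vacuolar proton pump that acidifies endosomes and lysosomes.

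RNA was taken from the subcutaneous fat of the back of crossbred fatteners, gilts and castrated males, at slaughter. The diet of group I was -DDGS+rapeseed oil and was fed to 7 of the pigs, of which 4 were female. Group II (+DDGS+rapeseed oil) had 3 females among 6 pigs, group III (+DDGS+beeftallow, that is beef tallow) 2 females among 5, and group IV (+DDGS+coconut oil) 3 females among 5. Groups I and II thus shared their added fat and differed in cDDGS, while groups III and IV differed from group I in both. Each pig was 1 library of ribosome-depleted total RNA, and the study states that the RNA was partly degraded.

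The libraries held 2437172 to 7979426 reads on genes, with a median of 4717511. Reads that mapped to 1 place and fell on no annotated gene, called reads outside genes below, averaged 56.8% in groups I and III, 62.5% in group II and 63.0% in group IV, with single pigs between 51.1 and 71.3%. The 6 matched adipocyte markers of a list of 10 summed to between 2182 and 3792 CPM (counts per 1e6 gene reads, TMM-normalized) in the 23 pigs, and none was at 0 in every pig. Their mean sum was 3284 ± 444.8 CPM (SD, n = 7) in group I and 2770, 2752 and 2684 CPM in groups II, III and IV, with 5 of the 6 markers lower in each. Macrophage markers were also found, with 9 of 12 matched and none at 0 in every pig, and their sum was 102 ± 54.2 CPM (SD, n = 7) in the pigs of group I and 248 ± 70.4 CPM (SD, n = 6) in those of group II. Groups III and IV lay between, with 158 ± 62.7 CPM (SD, n = 5) and 166 ± 60.0 CPM (SD, n = 5). The 5 matched mast cell markers summed to means of 103, 165, 113 and 122 CPM from group I to group IV, and the 6 endothelial ones to 834, 938, 999.5 and 987 CPM. Of the 3 mast cell markers with enough reads, 2 were higher and 1 lower than in group I in each of groups II, III and IV. Of the 6 endothelial ones, 4, 5 and 5 were higher. KIT and MS4A2 made up most of the mast cell sum, and PECAM1 most of the endothelial sum. MS4A2 itself is on the study's list for group I against group II, and so is the macrophage marker VSIG4. The study also names C1Q and MRC1 among the genes raised by cDDGS. The macrophage sum is therefore not independent of its lists. The part of these cells in the levels below was not tested. In a tissue sample, fewer cells of a type and less RNA per cell cannot be told apart, and this holds for every level given here.

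HIP1R was lowest in group I. The 7 pigs of group I ranged from 22.6 to 43.9 CPM with a median of 31.1, and the 6 pigs of group II from 39.3 to 64.7 CPM with a median of 45.5. In group III the 5 pigs had 27.3, 39.2, 39.9, 43.1 and 69.4 CPM, and in group IV they had 36.5, 48.5, 49.2, 50.4 and 55.2 CPM. From group I to group IV the means were 31.9 ± 7.38 (SD, n = 7), 49.5 ± 10.1 (SD, n = 6), 43.8 ± 15.6 (SD, n = 5) and 48.0 ± 6.93 CPM (SD, n = 5). The groups overlapped: 4 of the 6 pigs of group II, 1 of the 5 of group III and 4 of the 5 of group IV lay above every pig of group I. Group III was the widest, with pig 48 inside the range of group I and pig 43 above every other pig of the study. On the log2 scale of the edgeR fit, group II stood 0.63 (SE 0.17) above group I, group III stood 0.46 (SE 0.21) above it and group IV 0.59 (SE 0.16), or 1.55-, 1.38- and 1.51-fold. Without pig 43 the difference of group III from group I was 0.23.

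MYO1E had the largest differences of the 5 genes from group I in the edgeR fits without a covariate. Its levels ran from 43.6 to 89.7 CPM in group I with a median of 55.7, and from 82.2 to 116.5 CPM in group II with a median of 90.9. The pigs of group III had 76.8, 80.1, 84.9, 91.3 and 100.9 CPM, and those of group IV had 65.3, 91.5, 93.8, 100 and 108 CPM. Pig 1 held the top value of group I, and the other 6 pigs of that group lay between 43.6 and 62.6 CPM, below every pig of groups II, III and IV. In the order of the groups the means were 59.2 ± 14.7 (SD, n = 7), 94.7 ± 13.4 (SD, n = 6), 86.8 ± 9.59 (SD, n = 5) and 91.8 ± 16.2 CPM (SD, n = 5). The log2 difference from group I was 0.67 (SE 0.15) for group II, 0.55 (SE 0.15) for group III and 0.63 (SE 0.17) for group IV, that is 1.60-, 1.46- and 1.55-fold higher levels. With all cDDGS pigs in 1 group it was 0.62 (95% interval 0.38 to 0.86), larger in size than that of 95.7% of the genes tested.

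The difference of MYO1E moved with the share of reads outside genes. With that share as a covariate, its log2 difference from group I was 0.44 (SE 0.15) in group II and 0.29 (SE 0.19) in group IV, the groups with the higher shares. HIP1R then had the larger differences, 0.68 (SE 0.20) and 0.44 (SE 0.21), and under limma-voom HIP1R (0.70) and MYO1E (0.69) were close in group II. In group III, whose mean share equalled that of group I, it was 0.55 without and 0.56 with the covariate. Leaving out pig 1 raised the difference of group II to 0.80.

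APPL2 was high in groups II and III and low in groups I and IV. Group I ranged from 24.9 to 41.4 CPM with a median of 34.1, and group II from 36.5 to 49.1 CPM with a median of 45.6. Group III had 38.3, 41.0, 41.6, 41.6 and 53.4 CPM, and group IV had 30.5, 32.4, 36.2, 36.3 and 40.7 CPM. Of group II, 5 of the 6 pigs lay above every pig of group I, and of group IV 0 of 5 did. Pig 21 of group II lay below the other 5, which spanned 44.8 to 49.1 CPM. Means were 32.6 ± 5.69 (SD, n = 7), 45.0 ± 4.57 (SD, n = 6), 43.2 ± 5.85 (SD, n = 5) and 35.2 ± 3.94 CPM (SD, n = 5). Relative to group I, the log2 difference was 0.46 (SE 0.13) in group II and 0.40 (SE 0.14) in group III, against 0.11 (95% interval -0.18 to 0.40) in group IV. The last value was -0.00 with the share of reads outside genes as a covariate. In CPM computed without TMM and without the gene of the largest share, groups I and IV both had a mean of 48.0.

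RTN3 went the other way. In group I its levels were 179 to 283 CPM with a median of 228, and in group II 131 to 186 CPM with a median of 158. The pigs of group III had 147, 160, 193, 203 and 207 CPM, and those of group IV had 164, 164, 171, 181 and 184 CPM. In group I, 6 of the 7 pigs exceeded every pig of groups II and IV, and 5 exceeded every pig of group III. The exception in each case included pig 1, which had the least RTN3 of its group and the most MYO1E. Group means were 232 ± 33.8 (SD, n = 7), 159 ± 25.3 (SD, n = 6), 182 ± 27.1 (SD, n = 5) and 173 ± 9.14 CPM (SD, n = 5). The log2 difference from group I was -0.54 (SE 0.13) for group II, -0.35 (SE 0.13) for the pigs fed tallow and -0.42 (SE 0.11) for group IV, so that 0.69, 0.79 and 0.75 of the level of group I were left. With the share of reads outside genes as a covariate the values for groups II and IV were -0.37 (SE 0.14) and -0.31 (SE 0.15).

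DMXL1 was also highest in group I, with 173 to 225 CPM and a median of 204. Group II ranged from 135 to 182 CPM with a median of 150. In group III the levels were 154, 155, 165, 170 and 184 CPM, and in group IV they were 129, 143, 156, 159 and 159 CPM. Every pig of group IV lay below every pig of group I, the only pair of groups without overlap for any of the 5 genes. Among all genes tested between groups I and IV, 0.934% had no overlap, and since this contrast served to choose DMXL1 the count is a description. Means were 199 ± 19.4 (SD, n = 7), 156 ± 19.1 (SD, n = 6), 166 ± 12.3 (SD, n = 5) and 149 ± 12.9 CPM (SD, n = 5). The log2 differences from group I were -0.35 (SE 0.11), -0.27 (SE 0.10) and -0.42 (SE 0.10) for groups II, III and IV, smaller in size than those of MYO1E and measured with a smaller error.

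**Figure D1:**
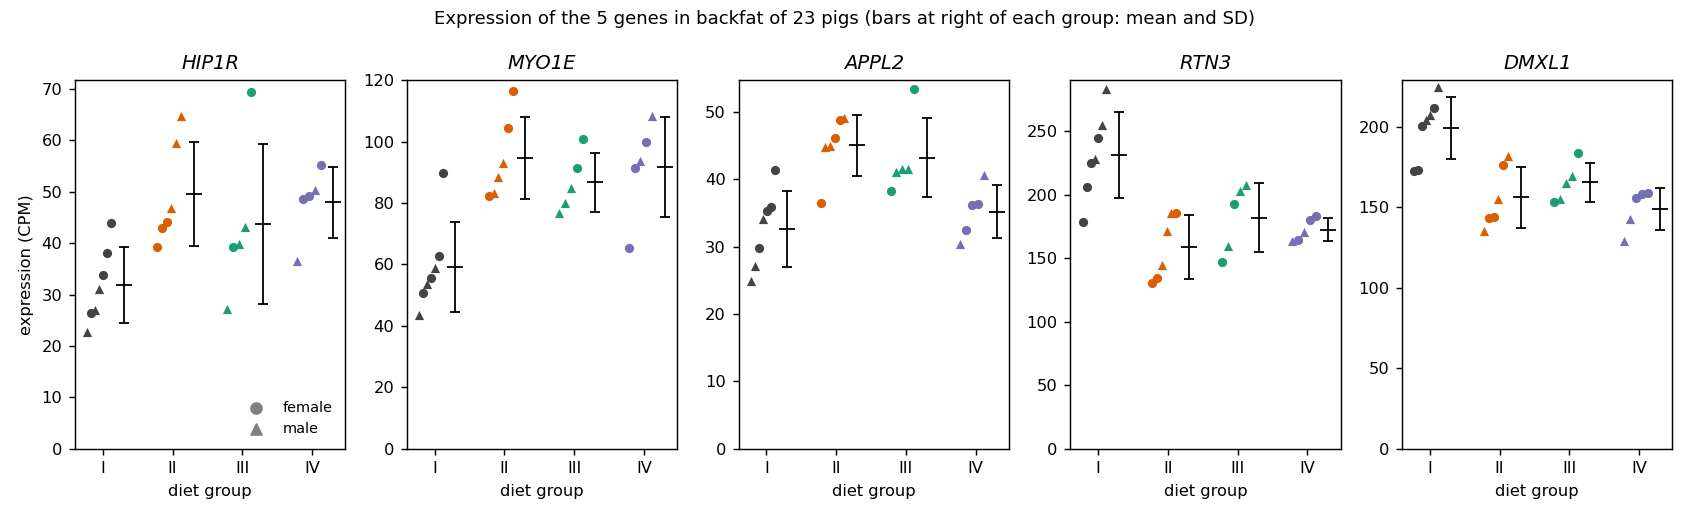
Expression in CPM (vertical axis, from 0) of each gene in the 23 pigs by diet group (horizontal axis), with circles for females, triangles for males, and the mean and SD at the right of each group. In HIP1R and MYO1E group I sits lowest, in RTN3 and DMXL1 it sits highest, and in APPL2 groups I and IV (means 32.6 and 35.2 CPM) sit below groups II and III (45.0 and 43.2 CPM).

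For 4 of the 5 genes the spread between pigs was below that of the median gene. In the fit over the 4 groups, edgeR's biological coefficient of variation was 22.9% for HIP1R, 18.4% for MYO1E, 14.5% for APPL2, 15.8% for RTN3 and 13.1% for DMXL1, against a median of 22.2% over all genes tested. Counting error was lower than this, between 3.45% for RTN3 (a mean of 841 reads per pig) and 7.57% for APPL2 (174 reads). The 5 genes had a higher mean CPM than 74.6% (APPL2) to 95.5% (RTN3) of genes, and no genes of like level were set beside them. Listing by adjusted p-value favours genes with a small spread, so these values are a description.

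In the contrasts that served to choose them, the counts of the 5 genes past both limits (adjusted p-value below 0.05, fold change over 1.3) depended on the tool. edgeR's quasi-likelihood test with Benjamini-Hochberg adjustment called 0 of 5 between groups I and II (0.0291% of all genes), 0 of 5 between groups I and III (0%), 0 of 5 between groups I and IV (0%) and 0 of 5 between group I and the combined groups (0%). At an unadjusted p-value under 0.05 the numbers were 5 (13% of all genes), 5 (7.96%), 4 (14.2%) and 5 (15.8%). DESeq2's Wald test, the tool of the study, called 4 of 5 (1.19%), 0 of 5 (0.101%), 4 of 5 (1.91%) and 3 of 5 (1.74%). DESeq2's shares, here and below, are over the genes it gave an adjusted p-value (8072 to 17315 by comparison), not over those edgeR tested. limma-voom called 3 of 5 in the combined contrast (0.474%) and 0 of 5 in the others (0.0387%, 0% and 0%). These shares say how the lists arose and are no test. At the edge of the rule, DESeq2 put APPL2 just inside between groups I and II, with an adjusted p-value of 0.0491, and DMXL1 just outside, with 0.0628. In the combined contrast DMXL1 had an adjusted p-value of 0.00489 from DESeq2 but a log2 difference of -0.34, within the fold limit.

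Among the cDDGS groups, where group I takes no part, none of the 5 genes passed. The pigs of groups II, III and IV did enter the lists that the genes were chosen from. These comparisons are therefore not independent of that choice. Groups II and III were compared first, a comparison of rapeseed oil with beef tallow. The 5 log2 differences (group III minus group II) lay between -0.17 for HIP1R (95% interval -0.62 to 0.28) and 0.20 for RTN3 (-0.10 to 0.50). edgeR called 0 of 5 (0% of all genes), DESeq2 0 of 5 (0.296%), and 0 of 5 had an unadjusted p-value under 0.05 (6.22% of all genes). The intervals were -0.32 to 0.21 for APPL2 and -0.16 to 0.34 for DMXL1.

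Coconut oil (group IV) set against rapeseed oil (group II) gave 1 gene that stood out before adjustment. APPL2 was lower in group IV by a log2 difference of -0.36 (95% interval -0.62 to -0.11), or 0.78 of the level in group II. All 5 pigs of group IV lay below 5 of the 6 pigs of group II, and pig 21 was the exception. The unadjusted p-value was 0.00908 and the adjusted p-value of edgeR's quasi-likelihood test was 0.967, so the difference did not pass over 10062 genes. APPL2 had been listed for its level in group II and not for group IV, so the pigs of group II are not independent of its choice. The other 4 genes differed by -0.08 to 0.11 between these groups, and their intervals all held 0. In all, 0 of 5 were called by edgeR (0%) and by DESeq2 (0.0116%), and 1 of 5 had an unadjusted p-value under 0.05 (4.99% of all genes).

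Beef tallow against coconut oil gave the same order for APPL2, but this comparison reuses the pigs of group IV and is no separate result. APPL2 was listed for group II and not for group IV, so a low group IV is not independent of its choice. APPL2 was lower in group IV than in group III by -0.29 on the log2 scale (95% interval -0.57 to -0.01). The unadjusted p-value was 0.0416 and edgeR's adjusted p-value was 0.997. The difference was -0.21 without pig 43, the highest of group III. The remaining genes lay between -0.15 (DMXL1, 95% interval -0.38 to 0.09) and 0.13 (HIP1R, -0.32 to 0.58). Again 0 of 5 were called by edgeR (0%) or DESeq2 (0%), and 1 of 5 reached an unadjusted p-value under 0.05 (4.12% of all genes). The share of reads outside genes differed between groups III and IV, and with it as a covariate the value of APPL2 was -0.39 (SE 0.16).

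**Figure D2:**
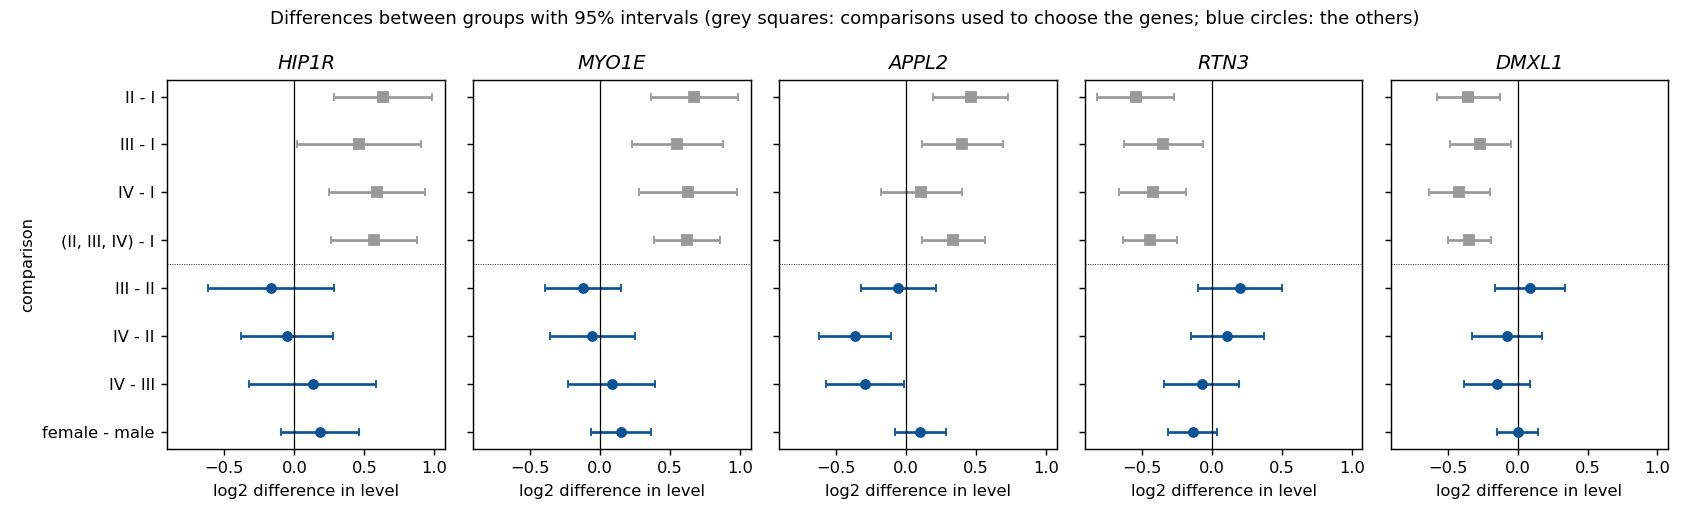
Log2 difference in level (horizontal axis) with its 95% interval for each gene and comparison (vertical axis). Grey squares are the comparisons with group I that served to choose the genes and carry no test, and blue circles are the others, among which the intervals of APPL2 for groups IV - II (-0.62 to -0.11) and IV - III (-0.57 to -0.01) are the ones that leave out 0.

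From low to high, HIP1R and MYO1E shared the order of their group means: I, III, IV and II. Neighbours in that order differed by less than the larger of their SDs, except groups I and III in MYO1E (a gap of 27.6 CPM against an SD of 14.7). For RTN3 the order was II, IV, III and I, and for DMXL1 it was IV, II, III and I. In both, the step from group III to group I (49.6 CPM against an SD of 33.8 in RTN3, and 33.8 CPM against an SD of 19.4 in DMXL1) exceeded the larger SD and the steps among the cDDGS groups did not. APPL2 alone had its widest step elsewhere, between group IV and group III (7.97 CPM against an SD of 5.85). The genes were chosen for differences from group I, so a place of group I at an end with a wide gap was favoured by that choice. The orders and gaps are therefore a description and were not tested. A gap below the SD does not show that groups were alike.

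The sexes offer a split that played no part in choosing the genes. Over all diets, RTN3 had a mean of 198 ± 43.1 CPM in males (SD, n = 11; 145 to 283) and 181 ± 34.3 CPM in females (SD, n = 12; 131 to 245). Females minus males, with diet as a covariate, the log2 difference was -0.14 (95% interval -0.31 to 0.04) in RTN3 and 0.18 (-0.10 to 0.46) in HIP1R. MYO1E differed by 0.15 (-0.06 to 0.36), APPL2 by 0.10 (-0.08 to 0.28) and DMXL1 by -0.00 (-0.15 to 0.15). By edgeR's quasi-likelihood test 0 of 5 genes were called, with adjusted p-values from 0.396 to 0.997, in a comparison that called 98 of 10276 genes (0.954%). DESeq2 called 0 of 5 (2.4% of all genes), limma-voom 0 of 5 (0.74%), and 0 of 5 had an unadjusted p-value under 0.05 (17.7%).

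Within single diets the sexes did not keep 1 order. HIP1R was higher in males of group II (46.8 to 64.7 CPM in 3 pigs) than in its females (39.3 to 44.1 CPM in 3 pigs), while its mean was higher in females of groups I, III and IV. DMXL1 had 129 and 143 CPM in the 2 males of group IV and 156 to 159 CPM in its 3 females, and in group I the males had the higher mean (212 against 190 CPM). With 2 to 4 pigs of each sex in a group, no test of a joint effect of sex and diet was made.

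Among pigs fed alike, some pairs of the 5 genes varied together and others did not. With the diet mean subtracted from the log2 level, RTN3 and MYO1E had a Pearson correlation of -0.695 over the 23 pigs (Spearman's rho -0.685), and RTN3 and DMXL1 one of 0.643 (rho 0.593). HIP1R and APPL2 came next among positive pairs with 0.492 (rho 0.555). DMXL1 had -0.439 with MYO1E and -0.355 with HIP1R, and HIP1R had -0.434 with RTN3 and 0.216 with MYO1E. APPL2 was close to 0 with the other 3 genes (-0.03 with MYO1E, -0.05 with RTN3 and -0.11 with DMXL1). The pigs share library preparation and differ in depth and RNA quality, so these values describe the samples and were not tested. Pig 1 contributed to the first pair, with the highest MYO1E and the lowest RTN3 of group I. For scale, 1.14% of genes correlated more closely with RTN3 than DMXL1 did, and 99.5% of genes had a higher correlation with MYO1E than RTN3 had.

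The share of reads outside genes varied with MYO1E and RTN3 within diets as well. Its correlation, again with diet means subtracted, was 0.689 with MYO1E (rho 0.746, and 0.674 without the 2 pigs farthest from the median share) and -0.561 with RTN3 (rho -0.561, and -0.540). It was -0.297 with DMXL1, 0.189 with HIP1R and 0.02 with APPL2. Only 0.281% of the genes tested had a higher correlation with that share than MYO1E. The summed macrophage markers, on the same footing, correlated at 0.532 with APPL2 (rho 0.478, and 0.337 without the 2 farthest pigs) and at 0.02 with MYO1E. Mast cell markers correlated at 0.536 with APPL2 (rho 0.370, and 0.395 without the 2 farthest pigs) and at 0.416 with HIP1R. With MYO1E they had 0.16, and 0.471 without the 2 farthest pigs. Endothelial markers correlated at 0.538 with MYO1E (rho 0.565, and 0.512) and at -0.447 with APPL2 (rho -0.265, and -0.241). Adipocyte markers had -0.454 with APPL2 (rho -0.405, and -0.368), and between -0.235 and 0.118 with the other 4 genes. Larger in size than the value of APPL2 were those of 8.29% of genes for macrophage, 2.15% for mast cell, 9.67% for endothelial and 6.65% for adipocyte markers. For MYO1E and endothelial markers it was 3.71%. Pairs not given above included keratinocyte markers with DMXL1 (0.467), smooth muscle markers with APPL2 (-0.442) and fibroblast markers with RTN3 (-0.41). The part of the cell markers in the differences between diets was not tested, and the reads outside genes entered only the covariate fits given above. Their share was higher in groups II and IV than in group I, so there its part and that of the diet cannot be told apart.

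**Figure D3:**
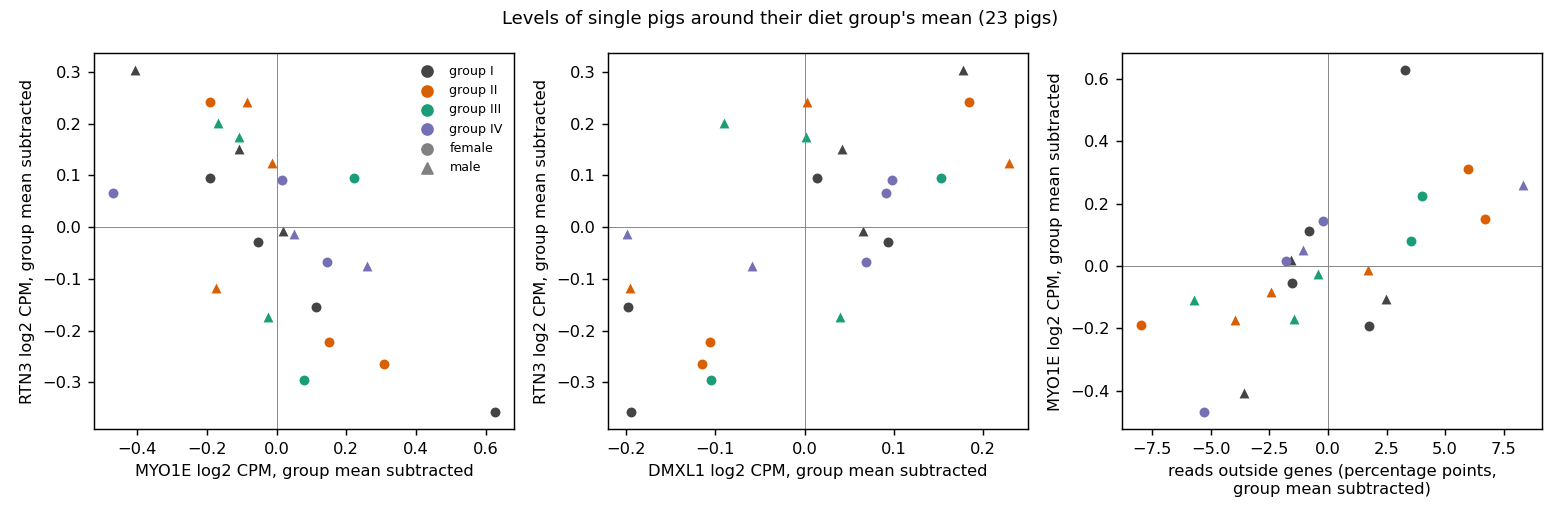
Each point is 1 of 23 pigs, coloured by diet group and shaped by sex, with the mean of its group subtracted from both axes. Left and centre: log2 CPM of RTN3 against MYO1E (r -0.695) and against DMXL1 (r 0.643); right: log2 CPM of MYO1E against the percentage points of reads outside genes (r 0.689).

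The genes whose levels ran most like each of the 5 within diets were looked up among 7877 genes with a symbol. For HIP1R they were ZNF318 (r 0.781), ZBTB4 (0.772) and BRD3 (0.763), and for MYO1E they were NCOR1 (0.810), CROCC (0.778) and EP400 (0.775). APPL2 ran with ZNF398 (0.821), SRC (0.772) and THSD7A (0.764). RTN3 ran with APOOL (0.828), RBM18 (0.824) and CLPX (0.816), and DMXL1 with NAA15 (0.764), TRNT1 (0.751) and PPP4R3B (0.746). For comparison, 95% of these genes had a correlation below a value that lay between 0.403 for DMXL1 and 0.514 for RTN3. None of the 5 genes was among the 3 most alike of another.

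Near relatives are given for HIP1R, MYO1E, RTN3 and DMXL1, with no test of the difference between a gene and its relative. HIP1, the other member of the HIP1R family, had means of 165 ± 27.0 CPM (SD, n = 7) without cDDGS in group I and 195 ± 24.2 CPM (SD, n = 6) in group II, a log2 difference of 0.24 (SE 0.13), with 0.04 (SE 0.15) for group III and 0.17 (SE 0.13) for group IV. Among class I myosins, MYO1D resembled MYO1E, with log2 differences from group I of 0.64 (SE 0.23), 0.48 (SE 0.26) and 0.66 (SE 0.23) in groups II, III and IV, but at 6.86 to 10.9 CPM by group mean. MYO1C had lower means in all 3 groups (-0.23, -0.26 and -0.21). MYO1F, a myosin of blood-derived cells, had values of 0.58 (SE 0.31), -0.10 (SE 0.34) and 0.53 (SE 0.33). MYO1G stayed under the read limit, with group means of 0.98 to 2.26 CPM. None of these relatives was called by edgeR in any contrast.

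RTN1, a reticulon known from nerve cells, was close to 0 (group means of 0 to 0.25 CPM). WDR7, the rabconnectin that pairs with DMXL proteins, had means between 40.4 and 43.5 CPM in all 4 groups and log2 differences from group I of 0.06 (SE 0.10), -0.04 (SE 0.10) and 0.07 (SE 0.09), against -0.35, -0.27 and -0.42 for DMXL1. RTN2, RTN4, APPL1 and DMXL2 were not analysed here.

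**Figure D4:**
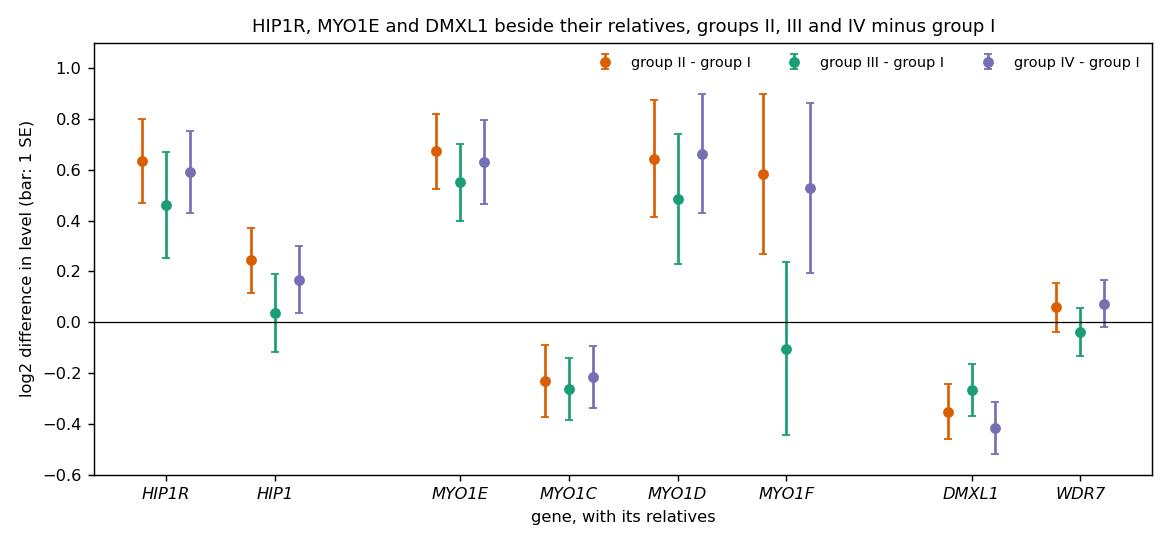
Log2 difference in level from group I (vertical axis, bars of 1 SE) in groups II, III and IV for HIP1R, MYO1E and DMXL1 and their relatives HIP1, MYO1C, MYO1D, MYO1F and WDR7 (horizontal axis). MYO1D runs beside MYO1E (0.48 to 0.66 against 0.55 to 0.67), while HIP1 and WDR7 stay nearer to 0 than HIP1R and DMXL1.

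The wider pathways were described from lists of textbook members. Of 26 further genes of clathrin uptake, 21 were matched and 20 had enough reads. Their median log2 differences from group I were -0.01, -0.02 and -0.01 for groups II, III and IV, beside 0.00, 0.00 and -0.01 for all genes, and edgeR called 0 of 20 in any of the 7 diet comparisons or between the sexes. ITSN1 and ITSN2, scaffolds of the coat, had values of 0.45 (SE 0.15) and 0.48 (SE 0.14) in group IV, and CLTC, the clathrin heavy chain, had 0.04 (SE 0.11) in group II. In group IV, 9 genes of this list were higher and 11 lower than in group I, with single genes between -0.52 and 0.48. Of 30 further genes of class I myosins and cortical actin, 20 had enough reads, with medians of 0.11, -0.06 and 0.04 for groups II, III and IV, and 0 of 20 were called. RDX (radixin) had 0.57 (SE 0.14) and SPTAN1 (spectrin) 0.38 (SE 0.12) in group IV, where 12 genes of this list were higher and 8 lower.

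Around APPL2, 12 of 24 listed genes of APPL endosomes and adiponectin receptors had enough reads, with median log2 differences of -0.03, -0.05 and 0.00 for groups II, III and IV. The adiponectin receptors ADIPOR1 and ADIPOR2 had log2 differences from group I between -0.03 and 0.11 in groups II, III and IV, and the insulin receptor INSR between -0.08 and -0.04. Of 20 listed genes of the vacuolar proton pump and rabconnectins, 10 had enough reads. Their medians were -0.27, -0.10 and -0.03 for groups II, III and IV, and 7, 7 and 5 of the 10 were lower than in group I. In group II single genes lay between -0.66 (SE 0.17), for the pump subunit ATP6V1H, and 0.36, and the subunits ATP6V0A2 and ATP6V1A had -0.33 (SE 0.13) and -0.31 (SE 0.12). Neither list had a gene called by edgeR in any comparison. The genes named from these 4 lists were picked after their values were seen.

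Of 20 listed genes that shape the endoplasmic reticulum beside RTN3, 10 had enough reads in most comparisons. Lower than in group I were 7 of 10 in group II, 6 of 10 in group III and 5 of 10 in group IV, with medians of -0.13, -0.13 and -0.02 on the log2 scale and single genes in group II between -0.64 and 0.49. ATL2 (ENSSSCG00000008487), an atlastin that fuses tubules of the reticulum, had 164 ± 30.5 CPM (SD, n = 7) in group I and 105 ± 18.3 CPM (SD, n = 6) in group II, a log2 difference of -0.64 (SE 0.15). It was not called between diets. Between the sexes it was called, 1 of the 10 genes of this list with enough reads. The other 4 lists had 0 called, and the share of all genes called between the sexes was 0.954%, so the call is given for ATL2 and not for the list. ATL2 was lower in females, at 117.5 ± 27.1 CPM (SD, n = 12; 83.9 to 175) against 154 ± 33.0 CPM in males (SD, n = 11; 105 to 197), with a log2 difference of -0.41 (95% interval -0.59 to -0.23) and an adjusted p-value of 0.0212 in edgeR's quasi-likelihood test. Without diet as a covariate its adjusted p-value was 0.159, and without pig 43, 52 or 54 it was 0.0603, 0.0508 or 0.0535. For RTN3 the value was -0.14 and did not pass.

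Beside these sex values, 1 of 7 fibroblast markers was called, COL1A2 (ENSSSCG00000015326), which was higher in females by 0.82 (95% interval 0.45 to 1.19; edgeR adjusted p-value 0.0282), with all 7 markers higher. Its adjusted p-value was 0.0904 without diet as a covariate and at most 0.0834 on leaving out 1 pig, and it was above 0.05 without pig 6, 8, 19, 21, 43, 48, 52 or 54. All 7 macrophage markers with enough reads were higher in females too, by a median of 0.48 on the log2 scale, with 0 of 7 called. The 3 skeletal muscle markers with enough reads were lower in females, with log2 differences from -2.57 to -2.01, with 0 of 3 called and 3 of 3 at an unadjusted p-value under 0.05. The part of these cells in the values of ATL2 or RTN3 was not tested.

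**Figure D5:**
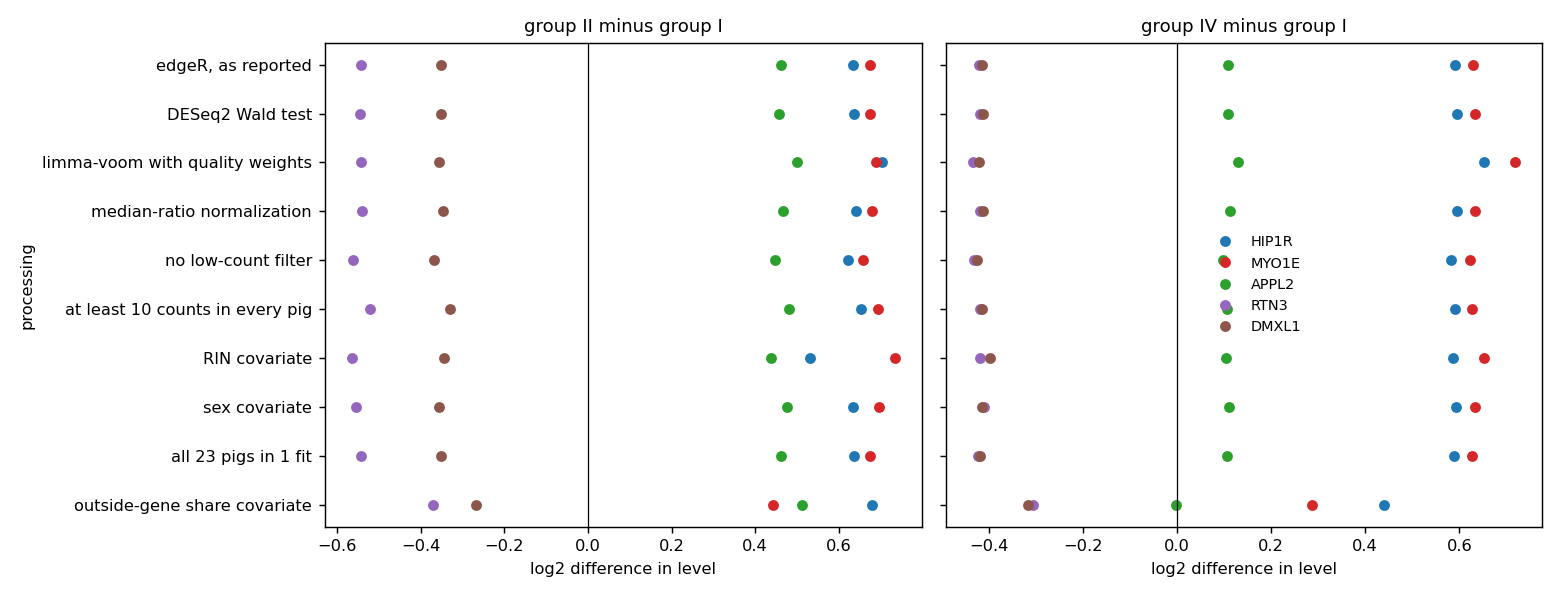
Log2 difference from group I (horizontal axis) of the 5 genes in group II (left) and group IV (right) under each way of processing the counts (vertical axis). With the covariate for reads outside genes MYO1E goes from 0.67 to 0.44 in group II and from 0.63 to 0.29 in group IV, and with the RNA integrity (RIN) covariate HIP1R goes from 0.63 to 0.53 in group II.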

How the data were processed

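RNA was sequenced from backfat of 23 pigs. The authors depleted ribosomal RNA, prepared stranded libraries, used FLEXBAR for trimming, TopHat for mapping and RSEM and HTSeq for counting, and deposited raw counts for each Ensembl identifier without normalization. Replicate runs of a library shared 1 flow cell. How these runs were merged and the strand setting of the counter are not given in the sources used here. The assembly that the study names and the range of the identifiers left the build of the counts unsettled, so no coordinates are printed. Reads mapping to several places are not in such counts. The 5 summary rows of each file held 62.6 to 76.7% of all reads listed and stayed out of library sizes and tests. There were 0 unused columns.

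Counts were analysed in R 4.3.3 with edgeR 4.0.16 (TMM, filterByExpr, glmQLFit, glmQLFTest, Benjamini-Hochberg over all genes tested), on the pigs of the groups compared. For the sexes all 23 pigs were fitted with diet as a covariate. CPM are TMM-normalized over all 23 pigs and not divided by gene length, so levels were not compared between genes. A log2 level is log2(CPM + 0.5). Each pig counts as 1 sample, since the 56 pairs of pigs fed alike had chi-square values of at least 7.02 per degree of freedom. The share of reads outside genes is that of reads at 1 place on no gene. With libraries of this depth, HIP1R and APPL2 had at least 77 and 67 reads in every pig.

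Symbols of 11804 of the 25322 identifiers came from a table of gene names, and 78 more, RTN3 among them, from the study's supplementary tables. Named were the 5 genes, their nearest relatives with a matched identifier (1 is not reported here), the 3 genes most alike to each by Pearson correlation, and list genes called in a tested comparison. ITSN1, ITSN2, CLTC, RDX, SPTAN1, ADIPOR1, ADIPOR2, INSR and 3 subunits of the proton pump were added after their values were seen. The 5 genes, the lists and the tests were chosen with earlier results of these data known. Alternatives were DESeq2 1.42.0, limma-voom with quality weights (limma 3.58.1), median-ratio normalization, fits without the filter on low counts or with 10 reads required of each pig, covariates (sex, the RNA integrity number RIN, the share of reads outside genes), all 23 pigs in 1 fit, no fold limit and leaving out each pig. The edgeR fit was tried on simulated counts for the sizes and depths of groups I and II only, with planted changes larger than the differences of the 5 genes. It says nothing on the other comparisons or on smaller changes. Figures were drawn with matplotlib 3.10.9.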

Additional observations from a re-analysis of the deposited data

Results flagged for a closer look

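In 3 of the 20 sets of 5 to 7 pigs formed by gene and diet group, 1 pig lay farther from the rest than Dixon's criterion allows, and chance marks about 1 set in 20. MYO1E in pig 1 of group I was at 89.7 CPM, while the other 6 pigs had 54.2 ± 6.63 CPM (SD, n = 6) and at most 62.6. Pig 1 also had the highest share of reads outside genes of group I, at 60.1%. APPL2 in pig 21 of group II was at 36.5 CPM, below the 46.8 ± 2.05 CPM (SD, n = 5) of the other pigs fed the same diet. APPL2 in pig 43 of group III was at 53.4 CPM, above the 40.6 ± 1.56 CPM (SD, n = 4) of its other pigs, and the same pig had the highest HIP1R of the study, at 69.4 CPM.

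The values without these pigs follow. Without pig 1, MYO1E was called between groups I and II (log2 difference 0.80, adjusted p-value of edgeR's quasi-likelihood test 0.0230), and MYO1E, RTN3 and DMXL1 were called between group I and the combined groups, with log2 differences of 0.75, -0.50 and -0.38. Over all genes these fits called 17 and 43, against 3 and 0 with pig 1 kept. Pig 1 had the highest MYO1E of group I, so leaving it out widens that difference by construction. These comparisons served to choose the genes, so the calls are a description. Without pig 43, the log2 difference of APPL2 between groups III and IV was -0.21, and that of HIP1R between groups II and III was -0.40. None of these patterns was weighed against a cause.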

How the results depend on the processing

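The diet differences rest on 5 to 7 pigs a group and on partly degraded RNA. The p-values set a difference against the spread estimated between pigs. No paired analysis was made, since each group held different pigs and the labels link no pig of 1 group to a pig of another. Counts of the 5 genes called changed with the tool only in comparisons used to choose them: against group I DESeq2 called 4 for group II, 4 for group IV and 3 for the combined groups, and limma-voom 3 in the last, where edgeR called 0. Leaving out 1 pig gave 0 to 1, 0 to 1 and 0 to 3. The 1 gene was MYO1E, without pig 1 and without pig 53, and the combined groups gave 3 without pig 1 and 2 (MYO1E and RTN3) without pig 3, 21, 48 or 53. Calls over all genes rose in these fits too. They were 17 (groups I and II) and 43 (combined groups) without pig 1, and 116 (groups I and IV) without pig 53. Each was the highest count of its comparison on leaving out 1 pig. In the tested comparisons no alternative called any of the 5. Signs turned for small differences. With the share of reads outside genes as a covariate they were -0.0024 for APPL2 (IV minus I), 0.069 for MYO1E (III minus II), and -0.10 for HIP1R, -0.17 for MYO1E and 0.035 for RTN3 (IV minus III), and 0.011 for DMXL1 (females minus males). At least 10 counts in every pig gave 0.0069 for the last, and limma-voom gave 0.015 for MYO1E (IV minus II). The ranges on leaving out 1 pig that held both signs were -0.11 to 0.040 for HIP1R and -0.12 to 0.052 for MYO1E (IV minus II), -0.0014 to 0.36 for HIP1R (IV minus III) and -0.030 to 0.027 for DMXL1 (females minus males). The cause was not tested.

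Leaving out the gene that took 20.8 to 37.1% of the counts, without TMM, raised every level by construction. From group I to group IV the means were then 46.7, 72.1, 61.7 and 65.0 CPM for HIP1R, 86.8, 139, 120 and 123 for MYO1E, 48.0, 65.5, 60.0 and 48.0 for APPL2, 337, 230, 251 and 236 for RTN3, and 290, 227, 228 and 203 for DMXL1. Over all genes, edgeR and DESeq2 called 3 and 96 (groups I and II), 0 and 13 (I and III), 0 and 154 (I and IV), 0 and 163 (I and the rest, limma-voom 51), 0 and 29 (II and III), 0 and 2 (II and IV) and 98 and 258 (sexes). edgeR's 3 between groups I and II were 0 with RIN, with the share of reads outside genes or with all 23 pigs in 1 fit, and 5 with sex as a covariate. Its counts of 0 were 1 (I and III), 2 (I and the rest) and 4 (II and III) without the low-count filter, 4 (II and III) with 10 counts in every pig, 1 (II and III) and 1 (II and IV) with RIN, 1 (II and IV) with sex, 1 (III and IV) with the share of reads outside genes and 1 (I and the rest) with all 23 pigs. Leaving out 1 pig gave 0 to 17 (I and II), 0 to 1 (I and III), 0 to 116 (I and IV), 0 to 43 (I and the rest), 0 to 5 (II and III) and 33 to 187 (sexes). With edgeR the sexes gave 49 without diet as a covariate, 57 with RIN, 57 with the share of reads outside genes and 158 without the low-count filter. ATL2 stayed called in 8 of 9 alternatives, with an adjusted p-value of 0.159 in edgeR without diet as a covariate, and in 20 of 23 fits without 1 pig. COL1A2 stayed called in 8 of 9 and in 15 of 23.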
